A study of Mus musculus with 6 samples.

Results

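ATF4 is a transcription factor that cells make when translation is slowed by phosphorylation of the initiation factor eIF2, and the 10 genes described here are Atf4 itself, its relative Atf5, and 8 targets of the ATF4 branch of the integrated stress response (Ddit3, Trib3, Asns, Chac1, Sesn2, Psat1, Phgdh and Slc3a2). They were chosen by name as known members of this pathway, through the transcript accession that each array probe carries, and make up 10 of 21220 genes tested. Kidney RNA of 6 newborn mice, collected about 6 hours after birth, was labelled with Cy3 and measured on single-colour expression arrays. Kidneys of 3 neonates labelled USP10 KO, in which the gene for the deubiquitinating enzyme USP10 is described as knocked out, were compared with kidneys of 3 neonates labelled USP10 WT, the wild type, and all 6 are labelled male. The design text describes the 3 samples of each genotype as separate neonates. The sources used here do not give the strain, the extent of the deletion or whether it is present in the kidney alone or in the whole animal. The levels below are log2 of the deposited signal minus the array's 75th percentile, so 0 is the 75th percentile of that array and a step of 1 is a doubling of signal. Probes bind with different strength, so levels are compared between arrays and not between genes.

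In the integrated stress response, kinases that sense amino acid shortage, unfolded protein in the endoplasmic reticulum, viral RNA or haem shortage phosphorylate eIF2. Global translation then falls, while the messenger RNAs of ATF4, ATF5 and a few other proteins are translated better because of upstream reading frames in their leaders. ATF4 binds the amino acid response element together with C/EBP partners and induces genes for amino acid synthesis, amino acid uptake, transfer RNA charging and, with prolonged stress, CHOP and cell death. Much of the control of ATF4 lies in translation, which RNA levels do not show, and neither protein nor eIF2 phosphorylation was measured here.

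The element bound by ATF4 and C/EBP factors was searched for in the promoters of the 10 genes, since it is what most of the known targets share. The windows were the 250 bases before to 50 bases after each RefSeq start on GRCm38.p6, 12 windows for the 10 genes. The letters TGATGNAA, on either strand, occurred in 3 of the 12 windows (25%), in 3.97% of all 32851 windows and in 2.46% of the 15263 windows of genes tested here. The 10 genes were chosen as known members of the ATF4 pathway, so this higher share is no result of the arrays. Elements outside these windows, or with other letters, were not searched for. A gene without a match is therefore not shown to lack the element. The palindrome TGACGTCA, which related bZIP dimers bind, occurred in 0 of the 12 windows, against 1.79% of all windows and 2.71% of those of tested genes. No single stretch can match both sets of letters, although matches could overlap in part. The 3 matches, in Asns, Chac1 and Trib3, are shown in the direction of the gene with the matched letters in capitals. In Asns the match begins 23 bases before the start, in Chac1 193 bases before it, and in Trib3 14 bases after it, within the transcript.
Asns, chr6:7693210-7693257, minus strand: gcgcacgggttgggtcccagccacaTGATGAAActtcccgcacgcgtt
Chac1, chr2:119351024-119351081, plus strand: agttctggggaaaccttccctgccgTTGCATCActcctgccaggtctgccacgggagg
Trib3, chr2:152344028-152344057, minus strand: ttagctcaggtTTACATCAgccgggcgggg

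The differences between the arrays labelled KO and WT were 0.99 for Trib3, -0.34 for Chac1 and -0.05 for Asns on the log2 scale, and none passed the limma test described below (adjusted p = 0.322, 0.519 and 0.944). A match is a description of sequence and says nothing about whether a factor was bound.

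Some facts of the arrays bear on every value. The single Usp10 probe stood at 3.64, 3.37 and 3.56 on the arrays labelled KO and at 3.01, 3.13 and 2.95 on those labelled WT, so it was higher where the label says knockout, by 0.49 ± 0.16 (SE), and did not pass the limma test (adjusted p = 0.416). The sources used here do not say whether this probe lies inside the deleted part, so every direction rests on the labels. WT replicate 2 had no Y-linked signal above background, and WT replicates 1 and 2 had Xist signal above background, against the label male. WT replicate 1 had Y-linked signal as well, so these values do not show whether it holds RNA of a single animal. Values against WT replicate 3 alone are therefore given where they changed a direction. By the time stamps in the file headers the arrays fell into a pair of scans, with KO replicates 1 and 2 and WT replicates 2 and 3 in scan 1 and KO replicate 3 and WT replicate 1 in scan 2. KO replicate 2 stood apart in how its signal was shared out, since 39.1% of it came from the top 1% of spots, where the remaining 5 arrays had 29.4% to 31.9%. Of the 43020 non-control spots, 64.4% to 73.9% were well above background, and none was saturated. The 75th percentile used for scaling was an intensity of 472, 306 and 326 on the arrays labelled KO. On those labelled WT it was 493, 488 and 579. Dividing by it therefore raised KO replicates 2 and 3 most.

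All 16 kidney epithelial markers, Cdh16, Lrp2 and Cubn among them, and all 10 proximal tubule markers were well above background on all 6 arrays, as the tissue label implies. Of neighbouring tissues, 6 of 8 liver markers (Alb, Ttr, Ahsg, Fgb, Apoa2 and Serpina1a) and 4 of 7 adrenal markers (Nr5a1, Mc2r, Cyp21a1 and Hsd3b1) were above background on all 6 arrays, and Apoa1 and Cyp11a1 on none. Of all 32451 genes with a probe, 20013 had one well above background on all 6 arrays. Counts this small cannot be read as a departure from that share. Levels were summed over a list, on a linear scale relative to the 75th percentile. For 7 macrophage markers they ran from 5.07 to 5.38 on the arrays labelled KO and from 5.89 to 6.96 on those labelled WT. Of these markers 6 differences were below 0, with a median of -0.77. At an unadjusted p of 0.05, 4 were lower, against 4.23% of all genes. No macrophage marker passed an adjusted p of 0.05 in limma as reported. Cx3cr1 did with probes of a gene averaged, with an intensity trend and robust variance, with array weights and with scan as a block. For 7 nephron progenitor markers the sums overlapped, from 13.8 to 20.9 against 15.0 to 21.6. Cited1, Meox1 and Crym were lower at an unadjusted p of 0.05, against the same 4.23% of all genes. Of the 7 differences 5 were below 0, with a median of -0.64. That median was -0.38 without KO replicate 2. The adrenal sums ran from 0.744 to 0.897 and from 0.628 to 0.704, although 3 of 5 tested adrenal genes lay below 0, with a median of -0.09 and Hsd3b1 at 1.78. For liver, proximal tubule and erythroid markers the sums overlapped (10.7 to 17.3 against 12.3 to 13.2, 106 to 129.97 against 109 to 122, and 33.9 to 64.9 against 33.9 to 50.3). Of the 10 proximal tubule markers 6 were lowest on KO replicate 2, Miox (0.12, against 3.02 to 3.98 elsewhere) and Slc5a2 (-3.23, against 0.03 to 0.90) by the widest margins, and the other 4 were lowest on WT replicate 3. Hnf4a (5.26) and Aqp1 (4.16) were highest on KO replicate 2. The part of these shifts in the differences below was not tested, and in whole kidney fewer cells of a type and less RNA per cell cannot be told apart.

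All 10 members had probes, 13 in all, and every one was well above background on all 6 arrays, so no member was lost to the filter on dim probes. Over all genes 20013 of 32451 had a probe well above background on all 6 arrays. No member passed an adjusted p of 0.05 in the fit over all genes (limma with Benjamini-Hochberg adjustment), where 17 of 21220 genes (0.0801%) did. With scan as a block 62 genes (0.292%) passed and again no member. At an unadjusted p of 0.05, 1 member was higher on the arrays labelled KO (Trib3) and 1 lower (Phgdh), against 6.15% and 4.23% of all genes. The groups did not overlap for 4 members, with KO above WT for Trib3 and Psat1, against 10.1% of all genes, and KO below WT for Phgdh and Chac1, against 8.10%. Counts this small cannot be read as a departure from those shares. Of the 10 differences 5 were above 0 and 5 below, with a median of 0.02, and the median over all genes was 0.03. The 10 genes showed no common direction.

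**Figure D1:**
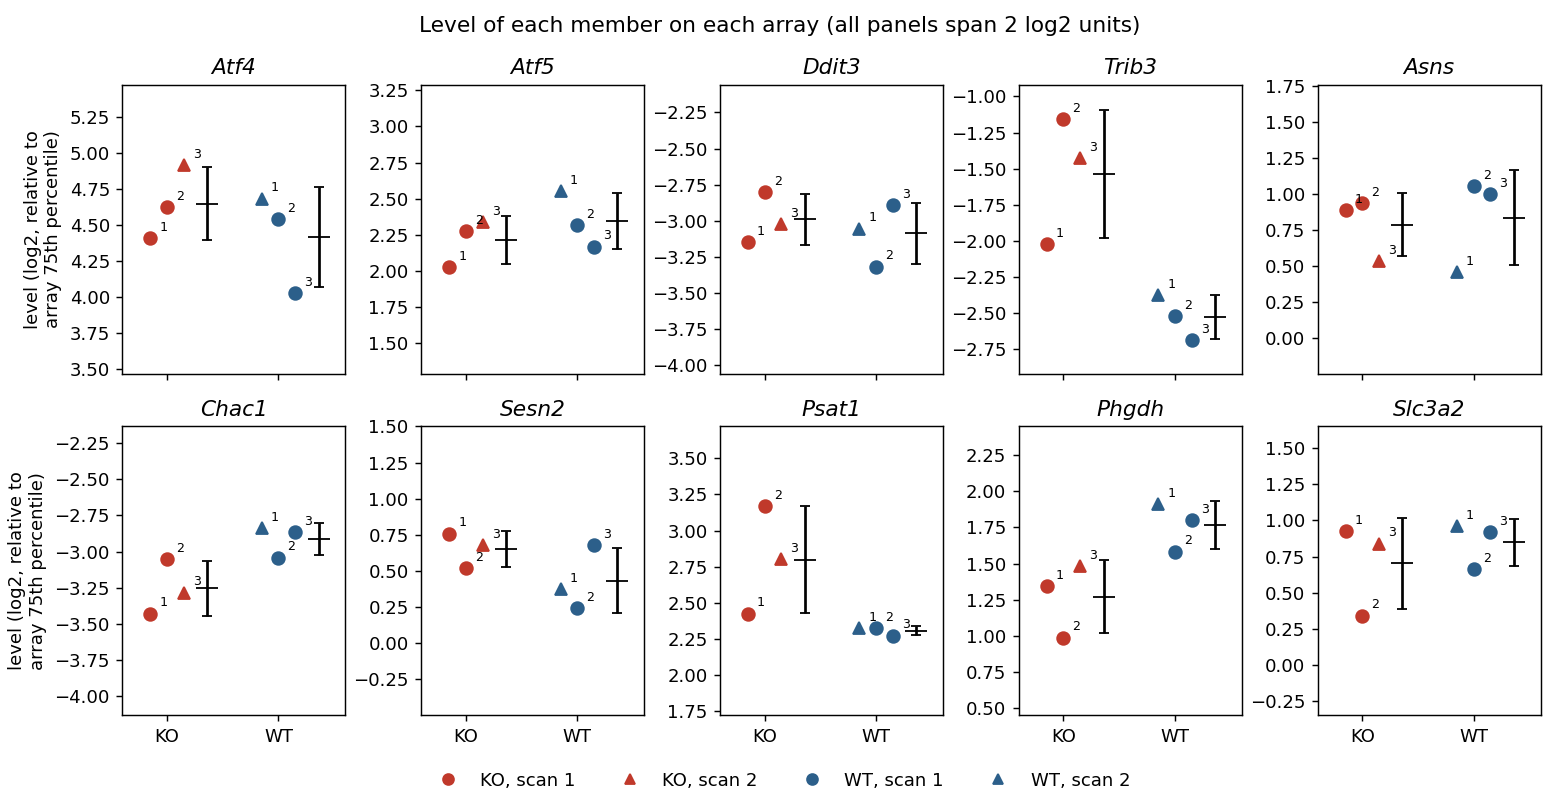
Level of each of the 10 members on each array, as log2 relative to the array's 75th percentile, with the replicate number beside each point, colour for group, point shape for scan, and the mean and SD of each group (n = 3) in black; every panel spans the same range of log2 units. The 3 KO points of Trib3 lie above all WT points and those of Phgdh below them, while for Atf4, Ddit3 and Asns the groups overlap.

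Atf4, the factor that gives the pathway its name, was read by a bright probe with a deposited intensity, background subtracted and before scaling, of 7545 to 12655. It stood at 4.41, 4.62 and 4.91 on the arrays labelled KO and at 4.68, 4.54 and 4.03 on those labelled WT. The groups overlapped, and the lowest of the 6 values, that of WT replicate 3, lay well below the rest. The difference was 0.23 ± 0.23 (SE), with a 95% interval from -0.31 to 0.78 (adjusted p = 0.711 in limma). It was 0.04 without WT replicate 3 and 0.62 against that array alone, and it was 0.10 without KO replicate 3, 0.35 without KO replicate 1 and 0.36 without WT replicate 1. Its size therefore depended on which arrays were included. Both arrays of scan 2 were above all 4 of scan 1 for this probe, and the difference was 0.23 within either scan. A second, dimmer Atf4 probe for the same transcript stood at -2.15, -2.15 and -2.46 against -2.38, -2.22 and -1.92, a difference of -0.08 ± 0.19 (SE; adjusted p = 0.890 in limma). On that probe the scan 2 arrays were the lowest, so the probes disagreed on both direction and scan.

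Atf5 encodes a related bZIP factor that, like ATF4, is controlled by upstream reading frames and is known for inducing mitochondrial chaperones. Its levels were 2.02, 2.27 and 2.34 on the arrays labelled KO and 2.55, 2.32 and 2.17 on those labelled WT. They overlapped, with a difference of -0.13 ± 0.18 (SE, 95% interval -0.56 to 0.29; adjusted p = 0.786 in limma). KO replicate 1 was the lowest and WT replicate 1 the highest, and the difference was -0.04 without the first, -0.03 without the second and 0.04 against WT replicate 3 alone.

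Ddit3, which encodes CHOP, the bZIP factor of prolonged stress and apoptosis, was dim, with a deposited intensity of 40.1 to 77.9. It stood at -3.15, -2.80 and -3.03 on the arrays labelled KO and at -3.05, -3.32 and -2.89 on those labelled WT. KO replicate 2 was the highest and WT replicate 2 the lowest, and the groups overlapped. The difference was 0.10 ± 0.19 (SE), with a 95% interval from -0.34 to 0.53 (adjusted p = 0.854 in limma), and it was -0.10 against WT replicate 3 alone.

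Trib3 had the largest difference of the 10. It encodes a pseudokinase that ATF4 and CHOP induce and that binds AKT and ATF4 itself. It stood at -2.02, -1.16 and -1.43 on the arrays labelled KO and at -2.38, -2.52 and -2.68 on those labelled WT, a mean of -1.54 ± 0.44 against -2.53 ± 0.15 (SD, n = 3 each). All 3 KO arrays were above all 3 WT arrays, with a gap of 0.35 between the groups. The KO arrays were also more spread, KO replicate 2 being the highest. The difference was 0.99 ± 0.25 (SE), or 1.99-fold, with a 95% interval from 0.41 to 1.57. Its unadjusted p in limma was 0.00454, the 294th smallest of the 21220, and it did not pass after adjustment (adjusted p = 0.322, and 0.176 with scan as a block). The difference was 1.01 within scan 1 and 0.95 within scan 2, and 0.80 without KO replicate 2. The deposited intensity of the Trib3 probe was low, from 85.1 to 137 before scaling. Normexp background correction compresses dim signals. With it the Trib3 difference was 0.74 under 75th percentile scaling, where the median of all genes was 0.14. With normexp and quantile normalisation together the Trib3 difference was 0.63 and that median -0.01. Quantile normalisation without normexp gave a Trib3 difference of 0.99. Across 19 alternatives the Trib3 difference ran from 0.63 to 1.24 and the unadjusted p in limma was under 0.05 in all 19. The adjusted p ran from 0.130 to 0.920.

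**Figure D2:**
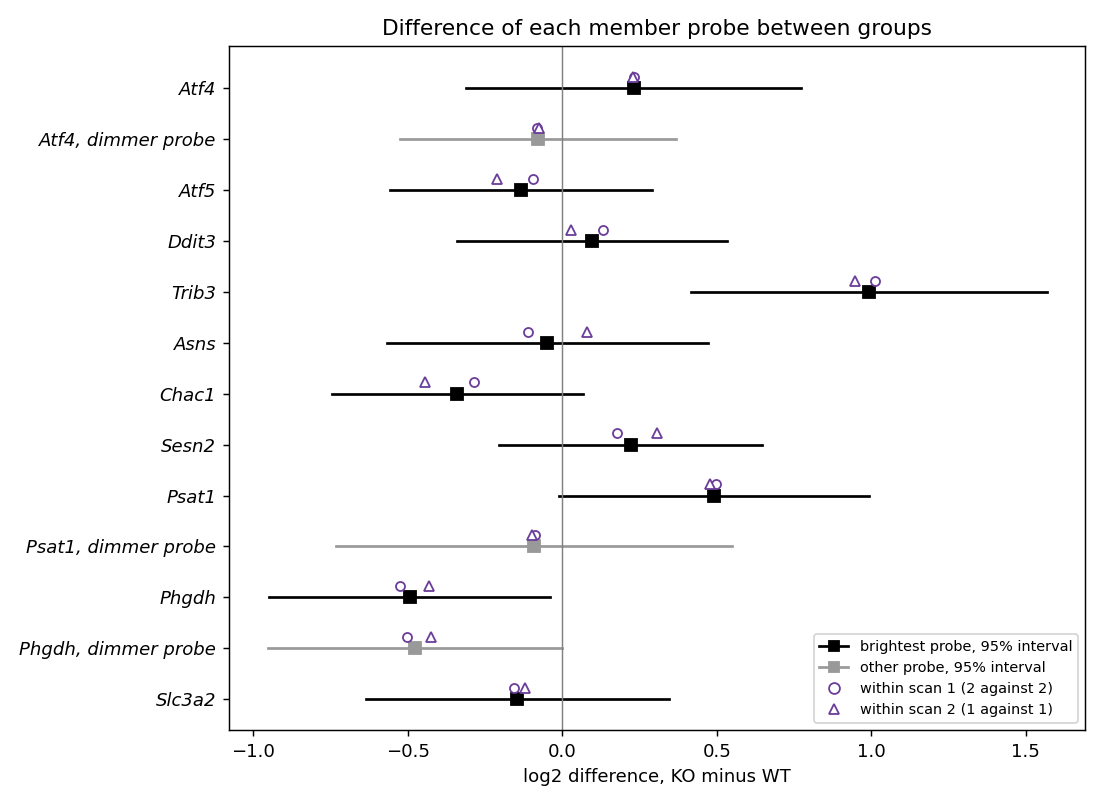
Difference between the arrays labelled KO and WT for each of the 13 probes of the 10 members, on the log2 scale with its 95% interval (n = 3 per group), black for the brightest probe of a gene and grey for its other probe, with open symbols for the differences within scan 1 (2 arrays against 2) and scan 2 (1 against 1). Among the brightest probes only the intervals of Trib3 and Phgdh lie clear of 0, and the other probes of Atf4 and Psat1 lie on the opposite side of 0 from the brightest.

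Chac1 encodes an enzyme that breaks down glutathione. Its difference had the opposite sign to that of Trib3. Its levels were -3.43, -3.05 and -3.28 on the arrays labelled KO and -2.84, -3.04 and -2.87 on those labelled WT. The groups did not overlap, but only 0.01 separated KO replicate 2 from WT replicate 2. The difference was -0.34 ± 0.17 (SE, 95% interval -0.74 to 0.06; adjusted p = 0.519 in limma). The signal was dim, at a deposited intensity of 33.5 to 79.4, and under normexp with 75th percentile scaling the difference was 0.12, where the median of all genes was 0.14.

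Sesn2 encodes sestrin 2, a leucine sensor that restrains the growth kinase complex mTORC1. Its levels were 0.76, 0.52 and 0.68 on the arrays labelled KO and 0.37, 0.24 and 0.68 on those labelled WT. WT replicate 3 lay above KO replicate 2, so the groups overlapped. The difference was 0.22 ± 0.18 (SE, 95% interval -0.20 to 0.65; adjusted p = 0.653 in limma), -0.03 against WT replicate 3 alone and 0.13 to 0.35 with an array left out.

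Of the amino acid genes, Psat1 and Phgdh encode neighbouring steps of serine synthesis. PHGDH catalyses the first, which draws on a glycolytic intermediate, and PSAT1 the transamination that follows. Their differences had opposite signs. Psat1 stood at 2.42, 3.17 and 2.80 on the arrays labelled KO and at 2.33, 2.32 and 2.27 on those labelled WT. The KO arrays were all above the WT arrays, by a gap of 0.10, and their SD was 0.37 against 0.03 for the WT arrays. Before scaling, the deposited intensity of this probe ran from 2279 (KO replicate 3) to 2797 (WT replicate 3), so the groups overlapped. The gap arose only with scaling, and the 75th percentile was lowest on KO replicates 2 and 3 (306 and 326). The difference was 0.49 ± 0.21 (SE), or 1.41-fold, with a 95% interval from -0.01 to 0.99 (adjusted p = 0.483 in limma). It was 0.31 without KO replicate 2, the highest array, and 0.68 without KO replicate 1. With other scalings it was 0.45 (array median) and 0.38 (quantile normalisation). A second, dimmer probe for the same transcript stood at -3.83, -3.09 and -3.32 against -3.22, -3.77 and -2.98, a difference of -0.09 ± 0.28 (SE; adjusted p = 0.913 in limma). With the mean of both probes the Psat1 difference was 0.20.

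Phgdh was lower on the arrays labelled KO, at 1.35, 0.99 and 1.48 against 1.91, 1.58 and 1.80. All 3 KO arrays were below the lowest WT array, with a gap of 0.10. The difference was -0.49 ± 0.19 (SE), so that the level was 1.41-fold lower, with a 95% interval from -0.95 to -0.04. Its unadjusted p of 0.0371 did not hold after adjustment (adjusted p = 0.463, and 0.236 with scan as a block, in limma). A second Phgdh probe gave 0.57, 0.10 and 0.13 against 0.55, 0.71 and 0.96. Here the groups overlapped, since KO replicate 1 lay just above WT replicate 1, and the difference was -0.48 ± 0.20 (SE; unadjusted p = 0.0497, adjusted p = 0.490 in limma). So both Phgdh probes gave nearly the same difference, unlike the pairs for Atf4 and Psat1. The difference was -0.52 within scan 1, -0.43 within scan 2 and -0.35 without KO replicate 2, and the unadjusted p was under 0.05 in 10 of 19 alternatives.

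Asns encodes asparagine synthetase, the classical amino acid response gene, and its promoter match is printed above. It stood at 0.89, 0.94 and 0.54 on the arrays labelled KO and at 0.46, 1.05 and 1.00 on those labelled WT. The values sorted by scan and not by label, since both scan 2 arrays were below the 4 of scan 1, by 0.47 on average. The difference between groups was -0.05 ± 0.22 (SE, 95% interval -0.57 to 0.47; adjusted p = 0.944 in limma), and it was -0.11 within scan 1 and 0.08 within scan 2.

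Slc3a2 encodes the heavy chain that carries several amino acid exchangers, LAT1 and the cystine transporter among them, to the cell surface. Its levels were 0.93, 0.34 and 0.84 on the arrays labelled KO and 0.96, 0.66 and 0.92 on those labelled WT. KO replicate 2 was the lowest, WT replicate 2 the next, and the other 4 arrays lay close together. The difference was -0.14 ± 0.21 (SE, 95% interval -0.63 to 0.34; adjusted p = 0.799 in limma), and 0.04 without KO replicate 2.

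No array gave the extreme values of most members. WT replicate 1 was the highest of the 6 arrays for 4 members, KO replicate 2 for 3 and KO replicates 1 and 3 and WT replicate 2 for 1 each. WT replicate 3 was the lowest for 3, KO replicates 1 and 2 and WT replicate 2 for 2 each and WT replicate 1 for 1. Over all genes KO replicate 2 was the highest for 28.1% and WT replicate 1 for 14.5%, and WT replicate 3 was the lowest for 24.3%.

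Genes of the wider pathway were taken from lists of 7 to 20 genes, and none passed an adjusted p of 0.05 in the limma fit over all genes. Each list is given by its count of differences above and below 0 and its median. Upstream, among the 15 genes for eIF2 kinases, phosphatase subunits and eIF2B, 7 differences were above 0 and 8 below, with a median of -0.01. Eif2ak3, which encodes PERK, the kinase of the endoplasmic reticulum, was higher by 0.63 ± 0.22 (SE; adjusted p = 0.436 in limma), with 1.29, 1.55 and 1.44 on the arrays labelled KO and 0.90, 1.11 and 0.40 on those labelled WT. Eif2ak4, which encodes the amino acid sensor GCN2, differed by 0.64 ± 0.27 (SE), and the eIF2B subunit gene Eif2b1 by -0.41 ± 0.16 (SE). Neither passed (adjusted p = 0.482 and 0.460 in limma).

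Among 7 partners and related bZIP factors, Cebpb differed most. C/EBP-beta pairs with ATF4 on the amino acid response element. Cebpb stood at 3.07, 3.41 and 3.47 on the arrays labelled KO and at 2.57, 2.23 and 2.30 on those labelled WT, with no overlap. The difference was 0.95 ± 0.19 (SE), or 1.93-fold (adjusted p = 0.183 in limma, and 0.0778 with scan as a block). Atf3, another stress factor that ATF4 induces, was lower, by -0.47 ± 0.18 (SE; adjusted p = 0.460 in limma), and Jun differed by 0.29 ± 0.21 (SE; adjusted p = 0.604). Of the 7 genes 6 differences were above 0, with a median of 0.17.

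The 20 other stress targets of ATF4 and CHOP held the largest differences of the pathway lists. Cebpb and Atf3 are counted in this list too, as is Ppp1r15a of the list with the eIF2 phosphatase subunits. Of 18 tested, 9 differences were above 0 and 9 below, with a median of 0.08. At an unadjusted p of 0.05, 6 genes were higher and 3 lower, against 6.15% and 4.23% of all genes. The list was chosen with earlier results of these data known and its genes share arrays. These counts are therefore a description and no test of the list. Herpud1, which takes part in the degradation of proteins from the endoplasmic reticulum, stood at 3.29, 3.53 and 3.55 on the arrays labelled KO and at 2.31, 2.27 and 2.11 on those labelled WT. Its difference was 1.23 ± 0.16 (SE), or 2.34-fold, with an adjusted p of 0.0630 in limma, and 0.0371 with scan as a block. Ddit4, an inhibitor of mTORC1 that several stress and hormone pathways induce, stood at 3.40, 4.08 and 3.79 against 2.29, 2.13 and 2.42. Its difference was 1.48 ± 0.21 (SE), or 2.78-fold, with an adjusted p of 0.0798 in limma, and 0.0605 with scan as a block. Herpud1 passed in 3 of 19 alternatives and Ddit4 in 2 of 19, and their highest adjusted p over these was 0.516. Both genes are known to respond to other pathways as well.

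**Figure D3:**
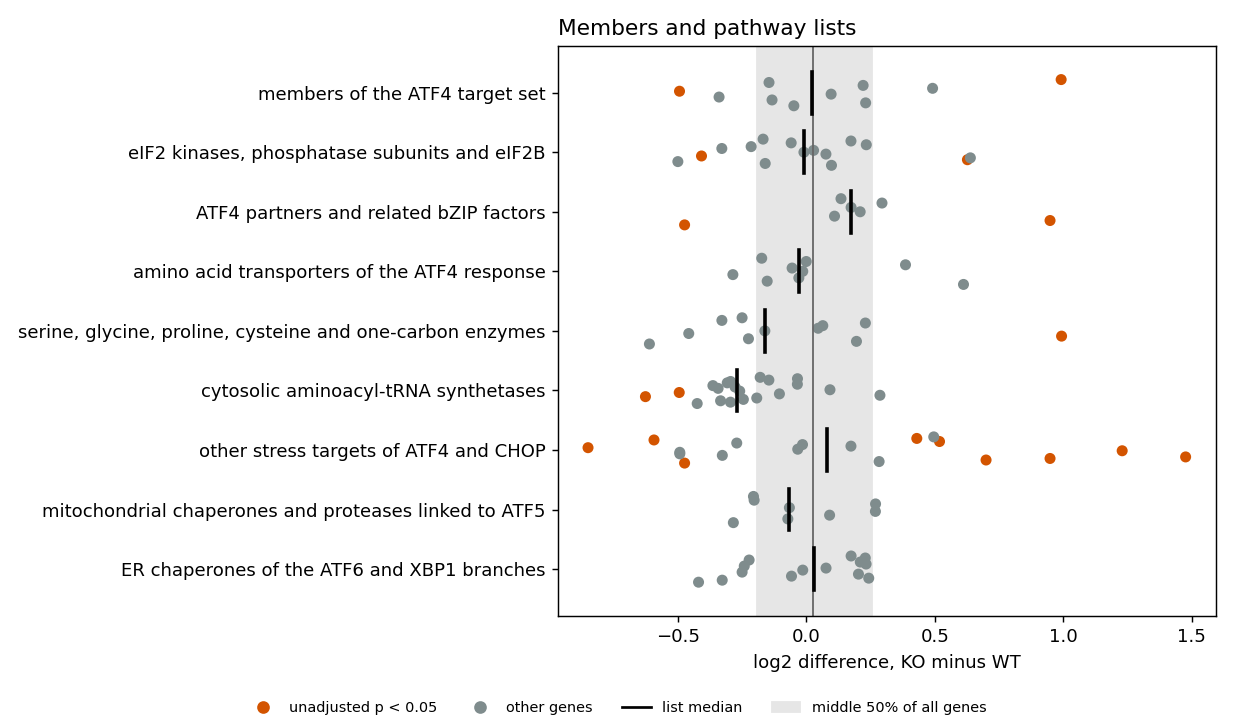
Differences between the arrays labelled KO and WT, on the log2 scale, for the 10 members and for the genes of 8 pathway lists, each point a gene, orange at an unadjusted p under 0.05, a black line at each list's median, and a grey band over the middle 50% of all genes tested (-0.19 to 0.26). Points of the members lie on both sides of 0, and 18 of 20 transfer RNA synthetase genes lie below it.

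Genes of amino acid uptake and synthesis lay on both sides of 0. Of 9 tested amino acid transporter genes, 2 differences were above 0 and 7 below, with a median of -0.03. Slc7a1, the arginine and lysine transporter, differed by 0.39 ± 0.18 (SE), Slc38a2 by -0.29 ± 0.19 (SE) and Slc1a4 by 0.61 ± 0.58 (SE). Slc1a4 also sorted by scan, since both scan 2 arrays were above the 4 of scan 1, by 1.49 on average. No transporter gene had an unadjusted p under 0.05. Among 11 tested genes of serine, glycine, proline, cysteine and one-carbon metabolism, 5 differences were above 0 and 6 below, with a median of -0.16. Got1, which encodes the cytosolic aspartate aminotransferase, stood at 3.05, 3.62 and 3.76 on the arrays labelled KO and 2.97, 2.63 and 1.85 on those labelled WT. It differed by 0.99 ± 0.33 (SE), or 1.99-fold (adjusted p = 0.416 in limma), with no overlap but a gap of 0.09. Aldh18a1 of proline synthesis (-0.61 ± 0.27, SE) and the alanine aminotransferase gene Gpt2 (-0.46 ± 0.22, SE) lay below 0. Neither passed, with adjusted p = 0.483 and 0.499 in limma.

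Charging of transfer RNA is a further arm of the ATF4 response. Of 20 cytosolic aminoacyl-tRNA synthetase genes, 18 differences were below 0 and 2 above, with a median of -0.27. Over all genes 9918 of 21220 were below 0, and the middle 50% ran from -0.19 to 0.26. The groups did not overlap for 7 of them, with KO below WT for 6, against 8.10% of all genes, and above it for 1, against 10.1%. Farsb was lower by -0.63 ± 0.22 (SE; adjusted p = 0.428 in limma), Iars by -0.49 ± 0.20 (SE; adjusted p = 0.474) and Aars by -0.42 ± 0.19 (SE; adjusted p = 0.483). Farsb and Iars had an unadjusted p under 0.05 and no synthetase gene passed after adjustment. With the array scaled in 4 other ways, 15 to 19 of the 20 differences were below 0 and the median was -0.32 to -0.24. These genes share arrays, so the count of 18 is a description of the 6 arrays and not 20 separate observations.

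The 8 mitochondrial chaperone and protease genes linked to ATF5 had a median of -0.07, and Hspd1, the mitochondrial chaperonin, differed by 0.27 ± 0.16 (SE; adjusted p = 0.546 in limma). The 14 tested genes of the ATF6 and XBP1 branches, which hold endoplasmic reticulum chaperones, both factors and degradation genes, had a median of 0.03. Of these the factor gene Atf6 (-0.42 ± 0.26, SE), the degradation gene Edem1 (-0.25 ± 0.17, SE) and the disulphide isomerase gene Pdia4 (0.23 ± 0.17, SE) had the smallest p. In neither list did any gene reach an unadjusted p of 0.05.

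The profiles across arrays of Atf4, Ddit3 and Asns were also compared with those of 15173 named genes, after each gene was centred on its own mean. The genes nearest to Atf4 were Adprm and Commd2, at a root mean square distance of 0.026 and 0.031 on the log2 scale over the 6 arrays. Nearest to Ddit3 were Zfp280c (0.047) and Xpc (0.048), and nearest to Asns were Adck1 (0.043) and Prf1 (0.045). The spread of Atf4 over the arrays was 0.30 (SD), of Ddit3 0.18 and of Asns 0.25. These neighbours are the nearest of 15173 profiles over only 6 values, so their closeness does not show shared control. The profiles of Atf4 and Asns also sorted by scan.

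**Figure D4:**
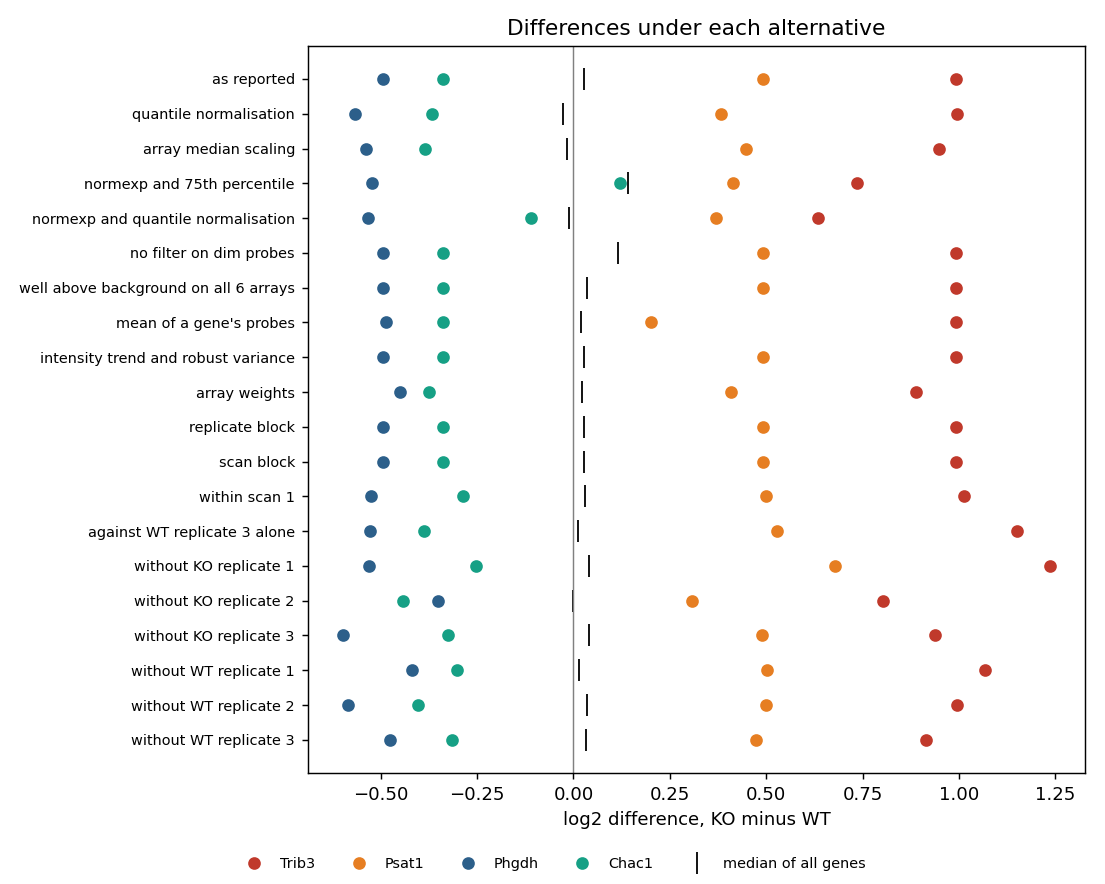
Differences between the arrays labelled KO and WT, on the log2 scale, for Trib3, Psat1, Phgdh and Chac1 under the setting as reported and each alternative, with a black mark at the median of all genes. The Trib3 points lie between 0.63 and 1.24 in every setting and those of Phgdh between -0.60 and -0.35.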

How the data were processed

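Scans were read with Agilent Feature Extraction. Its version is 11.0.1.1 in the file headers but 9.1 in the submitters' processing notes. Spots carry a linear intensity that the authors deposited after background subtraction and without scaling one array to another, per the file headers; flags mark saturated spots, outliers and spots well above background. Controls (1377 of 44397 spots) and outlier spots were left out, log2 was taken, values were set relative to each array's 75th percentile and repeat spots averaged. RefSeq accessions named 27234 of 39429 probes, giving 20659 genes.

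Probes were kept where all 3 arrays of either group were well above background. Each gene was represented by its brightest kept probe, for 21220 genes (other accessions counted as genes of their own). KO was set against WT with the moderated two-sided test of limma 3.58.1 (R 4.3.3). P-values were adjusted by Benjamini-Hochberg over the whole table at a threshold of 0.05. A single value, 3 against 3, cannot go below an exact two-sided permutation p of 0.1. The headers name another genome build for the design, so coordinates are given only for RefSeq promoters.

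The members and lists were chosen with earlier results of these data known. Named were all members, Usp10, sex-linked genes, up to 3 genes of smallest p per pathway list, the highest markers and those above background on no array, and the 2 nearest profiles of 3 members. Markers named for other reasons were chosen after their values were seen. The alternatives were other scalings, normexp correction (offset 50, on median signals), filters, probe means, variance models, array weights, blocks, and arrays left out.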

Additional observations from a re-analysis of the deposited data

How the results depend on the processing

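No member passed an adjusted p of 0.05 in limma under any of the 19 alternatives run. The count of genes passing, 17 as reported (2203 at an unadjusted p under 0.05), was 27 with normexp and the 75th percentile, 0 with normexp and quantile normalisation (2245 unadjusted), 0 with no filter on dim probes (2051), 1 with probes well above background on all 6 arrays, 8 with probes of a gene averaged, 45 with an intensity trend and robust variance, 36 with array weights, 62 with scan as a block, 0 against WT replicate 3 alone (2010) and 0 to 30 with an array left out. With replicate number as a block it was 0 (1609 unadjusted). Same-numbered arrays had correlations of -0.40, 0.48 and -0.60 between their deviations from the group means. The numbers were therefore not taken as pairs, and not every array correlated best with its own number. The correlations followed scan. Between KO and WT arrays of the same scan they ran from 0.12 to 0.89, and between arrays of different scans from -0.60 to -0.40. The fit as reported held no term for scan. The median over members, 0.02 as reported, was -0.0203 with array median scaling, 0.14 with normexp and the 75th percentile, -0.0182 with normexp and quantile normalisation, -0.0625 against WT replicate 3 alone and 0.0194 to 0.0884 with an array left out. Normexp with the 75th percentile moved the median of all genes from 0.03 to 0.14 and put 6 members above 0 and 4 below. The sign turned for Chac1 under that setting (0.12), and against WT replicate 3 alone for Atf5 (0.0440), Ddit3 (-0.0985) and Sesn2 (-0.0265). It also turned on the dimmer probes of Atf4 (-0.0792) and Psat1 (-0.0914), and with an array left out for Ddit3 (-0.0175 to 0.195), Asns (-0.238 to 0.0781) and Slc3a2 (-0.257 to 0.0360). The cause was not tested. Dim signal limits Ddit3, Chac1 and Trib3, and 3 arrays a group limit all values.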

Other observations

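Among the other stress targets of ATF4 and CHOP, 3 more genes separated the groups by more than most. They were chosen after their values were seen, and none passed the limma test. Bbc3, which encodes the apoptosis promoter PUMA, stood at 0.41, 0.40 and 0.37 on the arrays labelled KO and at -0.28, -0.25 and -0.40 on those labelled WT (adjusted p = 0.233 in limma). Nupr1, a stress-responsive chromatin protein, went the other way, at -0.89, -0.48 and -1.02 against -0.19, 0.20 and 0.14 (adjusted p = 0.321 in limma). Vegfa, the endothelial growth factor gene, was also lower on the arrays labelled KO, at 0.58, 0.73 and 0.81 against 1.29, 1.05 and 1.55 (adjusted p = 0.411 in limma).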
